A study of Mus musculus with 8 samples.

Results

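The genes described here are 33 members of the sterol and fatty acid synthesis program that SREBP transcription factors control, and they are 33 of the 55487 gene rows of the deposited mouse count table. They were chosen by symbol, as the enzymes of cholesterol synthesis, the regulators of SREBP and the enzymes of fatty acid synthesis and desaturation, and with earlier results of these libraries known: the set was proposed because its members had moved in opposite directions in replicates 1 and 2 and in replicates 3 and 4. Their differences between groups are therefore a description and carry no test. All 33 symbols matched a row, and all 33 passed the filter on low counts. The list is not complete, since several enzymes and receptors of the pathway are not analysed here.

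The study asked how dendritic cells change their transcripts after they take up cells that died by ferroptosis, an iron-dependent death by lipid peroxidation. BMDC are dendritic cells grown from the bone marrow of wild type C57/bl6 mice in GM-CSF for 10 days, and 4 libraries came from untreated BMDC. The 4 BMDC-fer libraries came from BMDC of the same origin that were co-cultured with ferroptotic Jurkat cells, a human T-cell leukemia line killed with the GPX4 inhibitor ML162, and that were then sorted for having engulfed them. The untreated BMDC had no co-culture, and sorting is described for the BMDC-fer alone, so uptake, exposure to dead cells and sorting cannot be told apart. The libraries held between 39326672 and 50532209 counts, and values below are CPM, counts relative to library size after TMM scaling. In both groups replicates 1 and 2 stood apart from replicates 3 and 4, and the labels name no batch that would say what the numbers share. Each comparison is therefore given over all 8 libraries and within each of these replicate pairs (2 libraries per group), which were drawn with their separation known. In such bulk libraries fewer cells of a type and less RNA per cell cannot be told apart.

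SREBP1 and SREBP2, encoded by Srebf1 and Srebf2, are made as precursors in the membrane of the endoplasmic reticulum. When sterols are scarce, Scap escorts them to the Golgi, where proteases free the part that enters the nucleus, and when sterols are plentiful, the Insig proteins hold Scap back. The freed factors raise the genes of cholesterol synthesis, chiefly through SREBP2, and those of fatty acid synthesis, chiefly through SREBP1, and many of these promoters also bind NF-Y and Sp1. The program is read as a gauge of the sterols that a cell senses, and in phagocytes it is known to respond to lipid brought in with engulfed material.

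Over all 8 libraries the set had a median difference near 0, and its differences in the replicate pairs were opposite. The summed CPM of the 19 cholesterol synthesis enzymes was 982, 1179, 509.9 and 471 in BMDC 1 to 4 and 509, 608, 1446 and 1209 in BMDC-fer 1 to 4. BMDC 1 and 2 together with BMDC-fer 3 and 4 were thus the high libraries, and BMDC 3 and 4 together with BMDC-fer 1 and 2 the low ones. The median log2 fold change of the 33 members, BMDC-fer over BMDC, was 0.066 over all 8 libraries, -0.86 within the pair of replicates 1 and 2 and 0.97 within that of replicates 3 and 4. The same medians over the 15411 tested genes were 0.00069, 0.0055 and 0.0051. Of the 33 members 32 had a log2 fold change below 0 in the first pair, beside 49.5% of tested genes, and 28 had one above 0 in the second, beside 50.3%. Over all 8 libraries 19 members were above 0, beside 50.1%. With no threshold, 27 members were below 0 in the first pair and above 0 in the second, as were 19.7% of all tested genes.

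**Figure D1:**
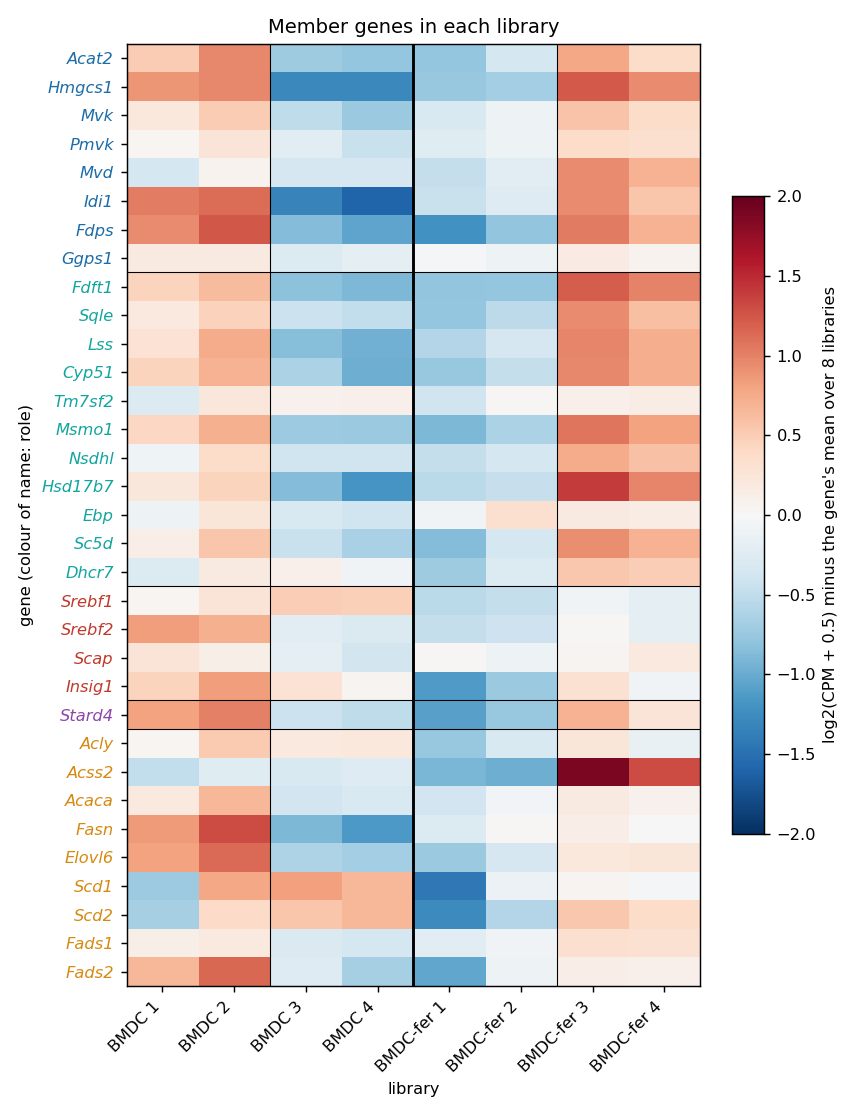
Heat map of the 33 members (rows, in order of role, colour of the name by role) in the 8 libraries (columns); colour is log2(CPM + 0.5) minus the gene's mean over the 8 libraries. Most rows of the 19 cholesterol synthesis enzymes, from Acat2 to Dhcr7, are red in BMDC 1 and 2 and in BMDC-fer 3 and 4 and blue in the other libraries, whereas Srebf1 is red or near its mean in BMDC and blue or near its mean in BMDC-fer.

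The crossed order was also complete in most members. In 22 of 33, each of BMDC 1, BMDC 2, BMDC-fer 3 and BMDC-fer 4 lay above each of BMDC 3, BMDC 4, BMDC-fer 1 and BMDC-fer 2, an order that 5.42% of all tested genes had. The inverse order was found in 0 members and in 4.42% of tested genes. The 11 members without the crossed order were Mvd, Tm7sf2, Ebp, Dhcr7, Srebf1, Insig1, Acly, Acss2, Fasn, Scd1 and Scd2. The highest library was BMDC-fer 3 for 15 members and BMDC 2 for 11, and the lowest was BMDC-fer 1 for 17 and BMDC 4 for 13. All 33 had a higher mean CPM in BMDC-fer 3 and 4 than in BMDC-fer 1 and 2, beside 8013 of the 15411 tested genes. A higher mean in BMDC 1 and 2 than in BMDC 3 and 4 was found in 27, beside 7758 of the tested genes. In these 27 the controls differed between the pairs as the BMDC-fer libraries did, in the opposite direction. The set was proposed for its opposite changes in the pairs, so these counts are a description. The difference of the log2 fold changes, replicates 3 and 4 minus replicates 1 and 2, was above 0 in all 33 members, beside 7732 of the 15411 tested genes. Its median was 1.70, between 0.05 for Srebf1 and 4.68 for Fdps.

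**Figure D2:**
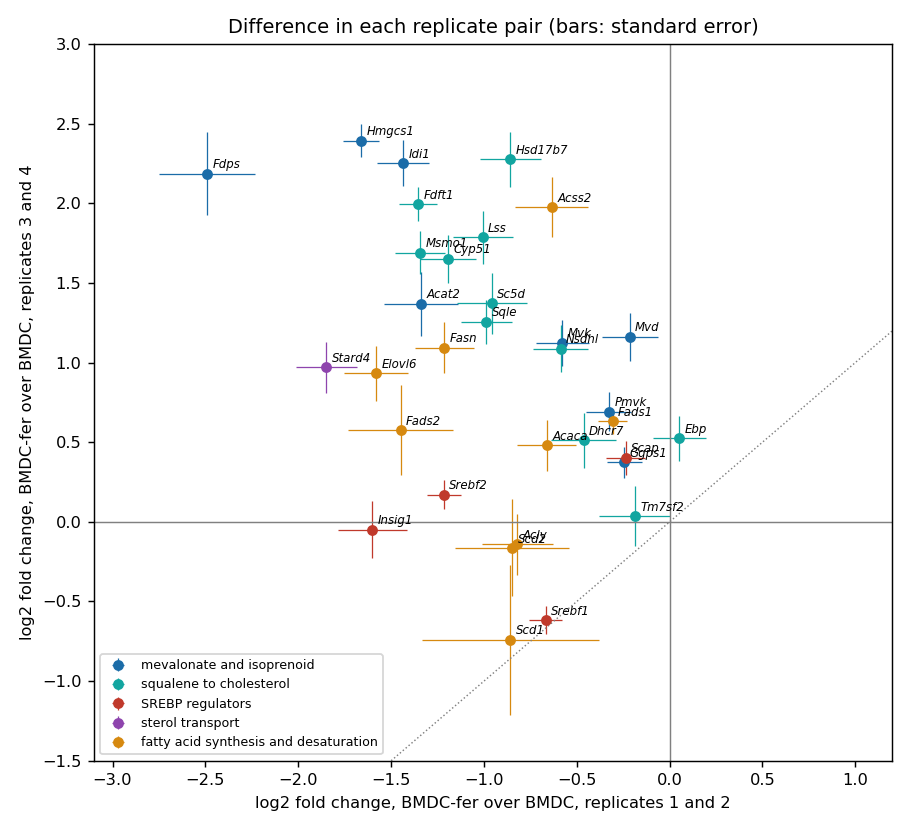
Log2 fold change of each member, BMDC-fer over BMDC, in replicates 1 and 2 (horizontal) against replicates 3 and 4 (vertical), with the standard error of the fit; colour shows the role and the dotted line marks equal changes. The points of 27 members lie at the upper left, below 0 in the first pair and above 0 in the second, and Srebf1 and Scd1 lie near the dotted line in the lower left.

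Calls required 0.58 or more on the log2 fold change scale, in either direction, together with an adjusted p up to 0.05 from edgeR's quasi-likelihood test (Benjamini-Hochberg over all tested genes). Over all 8 libraries this was met by 0 members on the higher side, where 3.47% of tested genes were called, and by 1 on the lower side, Srebf1, where 5.91% were. In replicates 1 and 2 it was met by 22 members on the lower side, beside 12.9% of tested genes, and by 0 on the higher side, beside 9.36%. In replicates 3 and 4 it was met by 20 members on the higher side, beside 16.8% of tested genes, and by 1 on the lower side, beside 16.2%. The members called lower in the first pair and higher in the second numbered 16, beside 1.07% of tested genes. With the replicate number as a block over all 8 libraries, the members on the lower side were 2, Srebf1 and Scd1, beside 8.13% of tested genes. These contrasts were those that chose the set, so nothing is read from the counts.

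The promoters of the set were looked at next. Sequence was not used to choose the set. Its members were chosen as SREBP pathway genes, however, and many of these promoters are known to bind NF-Y and Sp1. A high share of these boxes is therefore no independent result. Windows from 250 bases before to 50 bases after the start of the transcript, from RefSeq on GRCm38.p6, were at hand for 26 members and not for Fdps, Fdft1, Sqle, Stard4, Scd1, Scd2 and Fads1. The letters searched, on both strands, were CCAAT for the NF-Y box, GGGCGG for the Sp1 box, TCACNCCAC for the core of the sterol regulatory element and TCACGTGA for 1 form of the E-box, which SREBP also binds. In the members' windows 0 matches of different motifs overlapped, and 1 pair of NF-Y boxes did, in Fasn. A match is a run of letters, not a shown binding site. The windows of Hmgcs1, Idi1, Hsd17b7 and Msmo1 are shown for their wide crossed changes, that of Mvk for its number of NF-Y boxes and that of Acss2 for the widest difference between the BMDC-fer pairs. Capitals mark each NF-Y box, which reads ATTGG on the other strand, and the sterol regulatory element core.
Hmgcs1, chr13:119690101-119690400, plus strand: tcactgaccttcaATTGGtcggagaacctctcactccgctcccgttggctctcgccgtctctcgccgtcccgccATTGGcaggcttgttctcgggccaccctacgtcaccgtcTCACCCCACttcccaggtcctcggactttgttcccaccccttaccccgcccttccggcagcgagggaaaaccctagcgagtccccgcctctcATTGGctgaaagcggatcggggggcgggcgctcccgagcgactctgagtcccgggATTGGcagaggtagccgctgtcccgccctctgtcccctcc
Idi1, chr13:8885356-8885655, plus strand: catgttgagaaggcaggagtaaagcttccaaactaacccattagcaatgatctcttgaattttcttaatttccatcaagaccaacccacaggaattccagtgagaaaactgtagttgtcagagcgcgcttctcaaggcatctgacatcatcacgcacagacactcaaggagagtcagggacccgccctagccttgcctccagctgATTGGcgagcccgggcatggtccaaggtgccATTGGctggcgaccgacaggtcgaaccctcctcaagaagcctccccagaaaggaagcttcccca
Hsd17b7, chr1:169969156-169969455, minus strand: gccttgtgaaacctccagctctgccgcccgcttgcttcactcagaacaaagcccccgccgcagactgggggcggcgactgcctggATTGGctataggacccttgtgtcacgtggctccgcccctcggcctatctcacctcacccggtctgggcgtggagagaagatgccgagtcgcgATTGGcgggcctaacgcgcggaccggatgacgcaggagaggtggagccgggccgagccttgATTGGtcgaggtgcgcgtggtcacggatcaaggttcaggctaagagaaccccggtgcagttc
Msmo1, chr8:64733529-64733828, minus strand: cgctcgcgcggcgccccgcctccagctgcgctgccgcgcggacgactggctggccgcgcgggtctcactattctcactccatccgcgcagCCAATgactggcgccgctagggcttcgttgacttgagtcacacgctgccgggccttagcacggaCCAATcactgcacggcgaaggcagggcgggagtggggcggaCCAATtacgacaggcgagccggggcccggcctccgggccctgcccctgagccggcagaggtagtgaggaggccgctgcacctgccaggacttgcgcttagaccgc
Mvk, chr5:114444019-114444318, plus strand: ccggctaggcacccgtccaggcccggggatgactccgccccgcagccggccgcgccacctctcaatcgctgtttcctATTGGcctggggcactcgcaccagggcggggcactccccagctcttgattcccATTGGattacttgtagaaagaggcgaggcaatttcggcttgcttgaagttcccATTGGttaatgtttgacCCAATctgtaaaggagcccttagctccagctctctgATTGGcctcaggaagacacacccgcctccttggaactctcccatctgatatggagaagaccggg
Acss2, chr2:155517793-155518092, plus strand: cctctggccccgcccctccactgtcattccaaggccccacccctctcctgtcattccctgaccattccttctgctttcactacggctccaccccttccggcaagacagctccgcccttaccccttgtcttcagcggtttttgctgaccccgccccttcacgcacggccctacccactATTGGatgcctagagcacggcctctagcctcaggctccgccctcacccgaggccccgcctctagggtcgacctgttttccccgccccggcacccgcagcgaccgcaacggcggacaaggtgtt
The Hmgcs1 window holds 4 NF-Y boxes and the sterol regulatory element core 137 bases before the start, the Mvk window 5 NF-Y boxes, the Hsd17b7 and Msmo1 windows 3 each, the Idi1 window 2 and the Acss2 window 1. The NF-Y box was present in 21 of the 26 members with a window, or 80.8%, beside 41.1% of the 27025 genes with a window. Among the cholesterol synthesis enzymes it was present in 15 of 16. The Sp1 box was also present in 21 of 26 members, beside 38.2% of genes. The sterol regulatory element core as spelled here was present in 1 of 26 members, Hmgcs1, beside 1.44% of genes. The E-box as spelled here was present in 0 of 26, beside 1.12%. Shorter forms of the E-box, such as the letters cacgtg in the Hsd17b7 window, were not counted. Of the 44 NF-Y boxes in the members' windows, 40 lay upstream of the start and 30 within 150 bases upstream of it, with a median position of -61. The 9 members with a window but without the crossed order, Srebf1 among them, all held the NF-Y box, and the 5 members without the box in their windows, Acaca, Acat2, Elovl6, Fads2 and Scap, all had the crossed order. The Acaca window, chr11:84195188-84195487, lies inside the gene, chr11:84129672-84401651, so the bases before the gene's first start were not searched. No test was made of these shares.

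**Figure D3:**
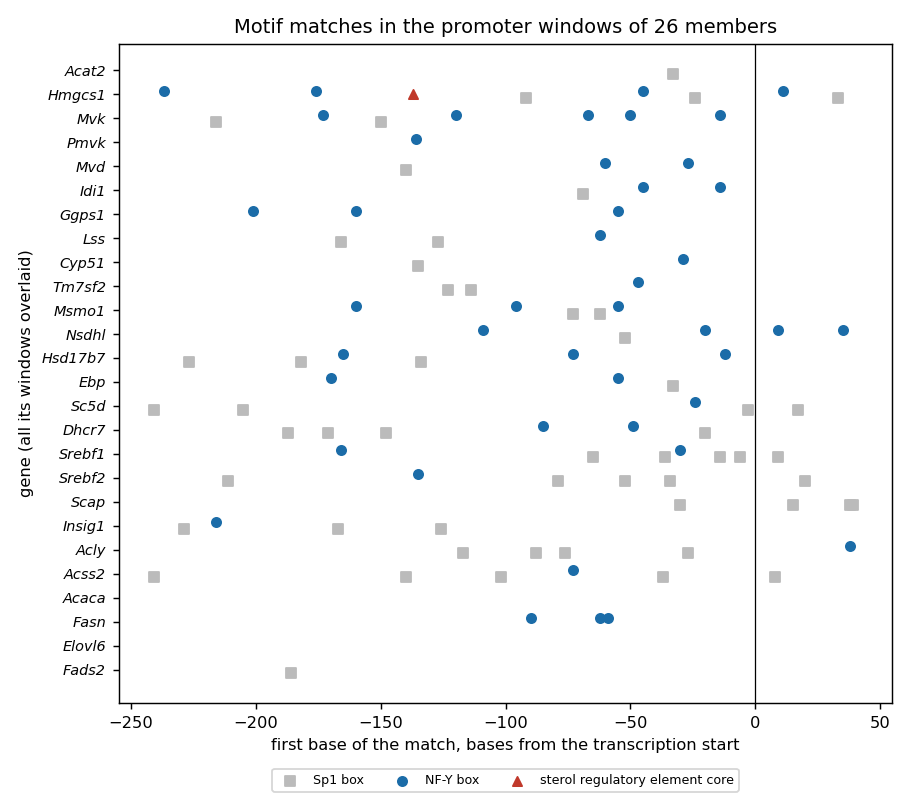
Positions of motif matches in the promoter windows of the 26 members that have one: the horizontal axis is the first base of the match in bases from the transcription start (vertical line), each row is a gene with all its windows overlaid, and the marker shape and colour show the motif. Of the 44 NF-Y boxes (blue circles) 30 lie in the 150 bases before the start, and the single sterol regulatory element core (red triangle) lies in Hmgcs1.

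The first enzymes of the pathway turn acetyl-CoA into isoprenoid units. Acat2 joins acetyl-CoA units in the cytosol, and Hmgcs1 makes HMG-CoA from the product. Hmgcs1 (ENSMUSG00000093930, chr13:119690379-119708260, GENCODE M21 on GRCm38) was at 127, 135, 28.01 and 27.99 CPM in BMDC 1 to 4 and at 40.3, 42.7, 161 and 133 CPM in BMDC-fer 1 to 4. Its 4 high libraries started at 127 CPM and its 4 low ones ended at 42.7 CPM, and each group held 2 of each kind. Its log2 fold change was -1.66 ± 0.10 for replicates 1 and 2 against 2.39 ± 0.10 for replicates 3 and 4, and over all 8 libraries it was 0.24 ± 0.66, an SE larger than the change. Acat2 was at 37.9, 52.2, 15.9 and 15.2 CPM in BMDC 1 to 4 and at 15.2, 20.5, 45.8 and 34.4 CPM in BMDC-fer 1 to 4. It crossed as Hmgcs1 did, at -1.34 ± 0.20 and 1.37 ± 0.20 in the pairs, although 45.9% of the 50-base words of its exons (every run of 50 bases) also occur in other genes such as Acat3, so its counts are uncertain.

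Mvk, Pmvk and Mvd, the 2 kinases and the decarboxylase that turn mevalonate into isopentenyl diphosphate, varied less. Mvk was at 23.5, 28.9, 14.2 and 11.9 CPM in BMDC 1 to 4 and at 16.3, 18.8, 30.5 and 26.4 CPM in BMDC-fer 1 to 4. Pmvk lay between 14.8 and 26.5 CPM over the 8 libraries, with log2 fold changes of -0.33 ± 0.12 and 0.69 ± 0.12 in the pairs. Both kept the crossed order within this narrower range. Mvd was at 57.8, 78.1, 58.9 and 58.8 CPM in BMDC 1 to 4 and at 53.1, 64.1, 143 and 120.2 CPM in BMDC-fer 1 to 4. In Mvd the BMDC libraries were close to each other apart from BMDC 2, and BMDC-fer 3 and 4 alone stood high, so its pairs gave -0.21 ± 0.15 and 1.16 ± 0.15.

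Idi1, which interconverts the isoprenoid units, had one of the widest ranges of the set. Idi1 (chr13:8885501-8892451) was at 145, 154, 27.7 and 23.00 CPM in BMDC 1 to 4 and at 51.8, 58.9, 138 and 104 CPM in BMDC-fer 1 to 4. BMDC 1 and 2 were 5.91-fold above BMDC 3 and 4 by their means, BMDC-fer 3 and 4 were 2.18-fold above BMDC-fer 1 and 2, and the group means were level at 87.5 ± 71.9 CPM (SD, n = 4) for BMDC and 88.1 ± 40.2 CPM (SD, n = 4) for BMDC-fer. Its log2 fold changes were -1.43 ± 0.14 and 2.25 ± 0.15 in the pairs and 0.0087 ± 0.64 over all libraries, with 30.5% of its words shared with other gene models. Fdps, the farnesyl diphosphate synthase, had the largest difference between the pairs but was low, at 6.06, 7.56, 1.37 and 1.15 CPM in BMDC 1 to 4 and at 0.97, 1.47, 6.49 and 5.0 CPM in BMDC-fer 1 to 4. Its log2 fold changes were -2.49 ± 0.26 and 2.19 ± 0.26, and another gene model on its strand covers 26.7% of its exon bases, so its counts are uncertain. Ggps1, which makes geranylgeranyl diphosphate for protein prenylation, lay between 14.6 and 20.3 CPM, with -0.24 ± 0.09 and 0.37 ± 0.10.

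**Figure D4:**
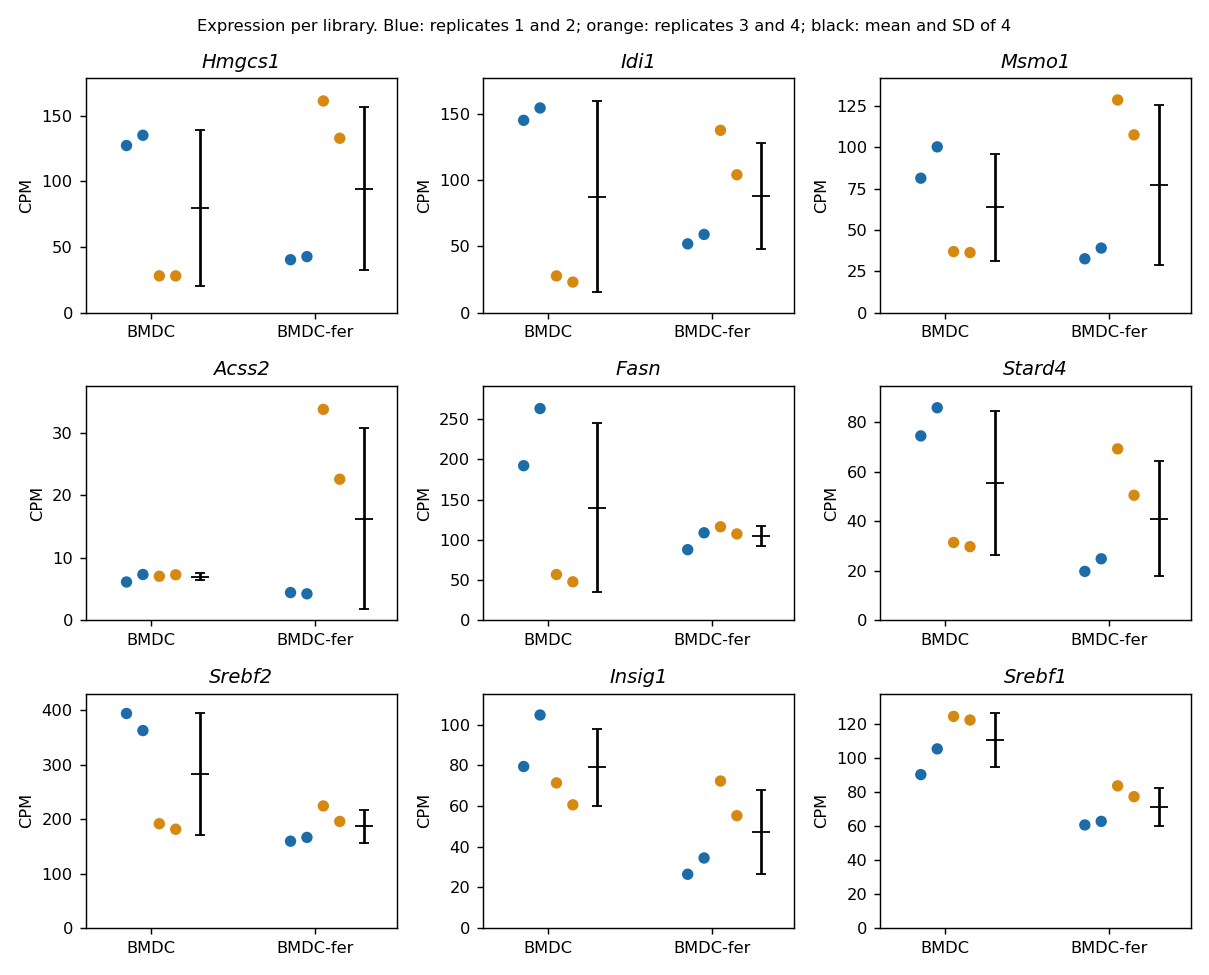
CPM of 9 members in the 8 libraries; each point is a library, blue for replicates 1 and 2 and orange for replicates 3 and 4, and the black mark is the mean ± SD of the 4 libraries of a group. In Hmgcs1, Idi1, Msmo1 and Stard4 blue is high in BMDC and orange is high in BMDC-fer, in Acss2 only the orange BMDC-fer points stand high, and in Srebf1 all BMDC points lie above all BMDC-fer points.

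The enzymes from squalene to cholesterol crossed in the same way. Fdft1, the squalene synthase, was at 44.8, 50.7, 18.2 and 17.3 CPM in BMDC 1 to 4 and at 18.6, 18.8, 76.2 and 65.4 CPM in BMDC-fer 1 to 4. Sqle, the squalene epoxidase, was at 82.9, 99.7, 53.3 and 50.9 CPM in BMDC 1 to 4 and at 42.1, 50.01, 139 and 109 CPM in BMDC-fer 1 to 4. Lss, which closes the ring to lanosterol, was at 35.8, 49.02, 16.04 and 14.8 CPM in BMDC 1 to 4 and at 19.3, 22.9, 58.03 and 48.5 CPM in BMDC-fer 1 to 4. In each of these 3, both high BMDC libraries and both high BMDC-fer libraries lay above all 4 low ones. In the order named, their log2 fold changes were -1.35 ± 0.10, -0.99 ± 0.14 and -1.01 ± 0.16 in the first pair against 2.00 ± 0.11, 1.26 ± 0.14 and 1.79 ± 0.16 in the second. Of the words of Fdft1, 30.7% are shared with other genes, chiefly its neighbour Ctsb.

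Cyp51, the lanosterol demethylase, and Msmo1, the sterol C4-methyl oxidase, had similar changes in both pairs. Cyp51 was at 108, 128, 50.5 and 39.7 CPM in BMDC 1 to 4 and at 46.4, 56.5, 154 and 129.9 CPM in BMDC-fer 1 to 4. Msmo1 (chr8:64718139-64733792) was at 81.3, 100.3, 36.9 and 36.3 CPM in BMDC 1 to 4 and at 32.6, 39.04, 129 and 108 CPM in BMDC-fer 1 to 4. Their changes were -1.19 ± 0.15 and -1.34 ± 0.13 in the first pair against 1.65 ± 0.15 and 1.69 ± 0.13 in the second, while over all 8 libraries they were 0.25 ± 0.48 and 0.27 ± 0.51. Nsdhl and Hsd17b7 complete the removal of the C4 methyl groups. Hsd17b7 (chr1:169949535-169969241) was at 24.2, 28.2, 11.1 and 8.78 CPM in BMDC 1 to 4 and at 14.1, 14.9, 55.3 and 40.99 CPM in BMDC-fer 1 to 4. It had the largest change over all 8 libraries of these enzymes, 0.79 ± 0.54, yet its BMDC-fer 1 and 2 lay within the range of BMDC. Nsdhl lay between 14.6 and 34.5 CPM, with -0.59 ± 0.15 and 1.09 ± 0.15 in the pairs.

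The last steps were not uniform. Sc5d, the lathosterol desaturase, was at 62.6, 84.5, 41.8 and 36.5 CPM in BMDC 1 to 4 and at 31.2, 44.6, 109.7 and 92.8 CPM in BMDC-fer 1 to 4 and crossed fully. Dhcr7, which makes cholesterol from its direct precursor 7-dehydrocholesterol, was at 25.5, 35.1, 33.2 and 29.4 CPM in BMDC 1 to 4 and at 18.6, 25.4, 45.3 and 43.8 CPM in BMDC-fer 1 to 4. BMDC 3 and 4 were not low in Dhcr7, and only its BMDC-fer libraries were split by pair, so its changes were -0.46 ± 0.18 and 0.51 ± 0.17. Ebp, a sterol isomerase, was at 49.2, 62.1, 42.4 and 39.8 CPM in BMDC 1 to 4 and at 49.8, 65.7, 59.7 and 58.4 CPM in BMDC-fer 1 to 4, and Tm7sf2, a sterol C14 reductase, lay between 9.2 and 14.5 CPM. Neither had the crossed order: the log2 fold changes of Ebp were 0.052 ± 0.14 and 0.52 ± 0.14, and those of Tm7sf2 were -0.19 ± 0.19 and 0.037 ± 0.19. The first value of Ebp turned to -0.14 without TMM scaling and ran from -0.17 to 0.25 over the fits that left out a library.

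Of the 4 regulators, Srebf2 and Scap had the crossed order and Srebf1 and Insig1 did not. Srebf1 (ENSMUSG00000020538, chr11:60199089-60222581) was at 90.1, 105, 124 and 122 CPM in BMDC 1 to 4 and at 60.5, 62.6, 83.5 and 77.2 CPM in BMDC-fer 1 to 4. Every BMDC library lay above every BMDC-fer library, an order that 11.6% of tested genes had, and Srebf1 was the only member whose groups did not overlap. The means were 110.5 ± 16.04 CPM (SD, n = 4) for BMDC and 70.96 ± 11.2 CPM (SD, n = 4) for BMDC-fer. Its log2 fold change was -0.64 ± 0.15 over all libraries, -0.67 ± 0.09 in the first pair and -0.62 ± 0.09 in the second. Its log2 fold change lay between -0.72 and -0.56 over the 8 fits that leave out a library. Its call was lost without BMDC 3, BMDC 4, BMDC-fer 1, BMDC-fer 2 or BMDC-fer 4. Reads were counted per gene, so the isoforms SREBP-1a and SREBP-1c cannot be told apart.

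Srebf2, the factor chiefly tied to the cholesterol enzymes, was at 394, 363, 191 and 181 CPM in BMDC 1 to 4 and at 159, 166, 224 and 196 CPM in BMDC-fer 1 to 4. BMDC 1 and 2 stood above the other 6 libraries, by 2.03-fold over BMDC 3 and 4, and BMDC-fer 3 and 4 came next. Its log2 fold changes were -1.22 ± 0.09 and 0.17 ± 0.09 in the pairs, and the 6 lower libraries spanned 159 to 224 CPM. Scap lay between 28.2 and 44.1 CPM, with -0.24 ± 0.10 and 0.40 ± 0.11. Insig1, the sterol-sensitive retention factor and itself an SREBP target, was at 79.4, 105, 71.3 and 60.5 CPM in BMDC 1 to 4 and at 26.4, 34.4, 72.3 and 55.2 CPM in BMDC-fer 1 to 4. In Insig1 only BMDC-fer 1 and 2 stood apart, below all others, and its change was -1.60 ± 0.19 in the first pair against -0.049 ± 0.18 in the second. Stard4, a carrier of cholesterol between membranes and an SREBP2 target, was at 74.4, 85.8, 31.4 and 29.7 CPM in BMDC 1 to 4 and at 19.7, 24.8, 69.2 and 50.5 CPM in BMDC-fer 1 to 4. Stard4 crossed as the enzymes did, at -1.85 ± 0.16 and 0.97 ± 0.16.

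The fatty acid enzymes were split. Acly and Acss2 both make cytosolic acetyl-CoA, from citrate and from acetate. Acss2 was at 6.13, 7.33, 7.05 and 7.28 CPM in BMDC 1 to 4 and at 4.43, 4.23, 33.8 and 22.6 CPM in BMDC-fer 1 to 4. Its 4 BMDC libraries were within 6.1 to 7.3 CPM and BMDC-fer 1 and 2 lay below them, while BMDC-fer 3 and 4 were 6.5-fold above BMDC-fer 1 and 2 by their means, the widest such difference in the set. Its log2 fold changes were -0.63 ± 0.20 and 1.98 ± 0.19. Acly was at 220.3, 306, 244 and 247 CPM in BMDC 1 to 4 and at 126, 172, 253 and 193 CPM in BMDC-fer 1 to 4. It did not cross: the pairs gave -0.82 ± 0.19 and -0.14 ± 0.19, and the second was 0.05 without BMDC-fer 4.

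Acaca makes malonyl-CoA, Fasn builds palmitate from it, and Elovl6 lengthens palmitate. Fasn was at 192, 263, 56.8 and 47.8 CPM in BMDC 1 to 4 and at 87.7, 109, 116 and 107 CPM in BMDC-fer 1 to 4. Its crossing was carried by BMDC, where replicates 1 and 2 were 4.35-fold above replicates 3 and 4, whereas the 4 BMDC-fer libraries lay between 87.7 and 116 CPM. Its log2 fold changes were -1.21 ± 0.16 and 1.09 ± 0.16. Elovl6 was at 16.4, 20.6, 5.77 and 5.49 CPM in BMDC 1 to 4 and at 5.26, 7.12, 10.7 and 10.8 CPM in BMDC-fer 1 to 4, with -1.58 ± 0.17 and 0.93 ± 0.17. Acaca lay between 31.0 and 64.9 CPM and had -0.66 ± 0.16 and 0.48 ± 0.16, although 52.6% of its words are shared with another gene model. All 3 had the first pair lower and the second higher, and only Fasn lacked the full crossed order.

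The desaturases followed different patterns. Scd1, which makes oleate, was at 31.6, 90.3, 93.8 and 83.3 CPM in BMDC 1 to 4 and at 19.2, 48.4, 54.9 and 51.1 CPM in BMDC-fer 1 to 4. BMDC 1 and BMDC-fer 1 were the low libraries of Scd1, so it varied by replicate 1 and not by pair, and BMDC 1 and 2 differed by 1.51 on the log2 scale, the widest gap inside a pair in the set. Its log2 fold changes were -0.78 ± 0.40 over all libraries and -0.86 ± 0.48 and -0.74 ± 0.47 in the pairs. With the replicate number as a block the first of these was -0.77. Its change in replicates 1 and 2 was 0.10 without BMDC 2, -1.42 without BMDC 1, -0.32 without BMDC-fer 1 and -1.68 without BMDC-fer 2. Scd2, the related desaturase, was at 238, 493, 557 and 601 CPM in BMDC 1 to 4 and at 156, 251, 549 and 484 CPM in BMDC-fer 1 to 4, with -0.85 ± 0.31 and -0.16 ± 0.30. Of the words of Scd1 4.66%, and of those of Scd2 4.01%, also occur in other genes, among them each other and Scd3.

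Fads1 and Fads2, the desaturases of polyunsaturated fatty acids, had the crossed order. Fads2 was at 44.6, 62.5, 23.3 and 17.3 CPM in BMDC 1 to 4 and at 13.4, 26.02, 30.6 and 30.1 CPM in BMDC-fer 1 to 4. Fads1 was at 75.2, 78.8, 56.7 and 54.3 CPM in BMDC 1 to 4 and at 58.9, 65.7, 86.6 and 85.1 CPM in BMDC-fer 1 to 4. Their changes were -1.45 ± 0.28 and -0.31 ± 0.08 in the first pair and 0.58 ± 0.28 and 0.63 ± 0.08 in the second. By group of enzymes, the median log2 fold changes of the first and the second pair were -0.96 and 1.27 for the 8 mevalonate and isoprenoid enzymes, -0.96 and 1.37 for the 11 enzymes from squalene to cholesterol, -0.94 and 0.06 for the 4 regulators, and -0.85 and 0.58 for the 9 fatty acid enzymes.

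Levels per length, in CPM per kb of merged exon, set the members in order. Scd2 at 86.4, Acly at 48.2, Srebf2 at 39.3 and Mvd at 34.1 CPM per kb had the highest levels in BMDC, and Acss2 at 0.68 and Fdps at 0.96 the lowest. Merged exons hold the bases of all annotated transcripts of a gene, so the value is lowered where the expressed transcript is shorter. The counts of Fdps are also uncertain, so the order is approximate. In BMDC-fer the highest were Scd2 at 65.9, Mvd at 51.2 and Acly at 35.2 CPM per kb. The spread within a group was wide for most members, for instance 79.6 ± 59.7 CPM (SD, n = 4) for BMDC and 94.3 ± 62.1 CPM (SD, n = 4) for BMDC-fer for Hmgcs1, and in BMDC Scd2 above Acly was the only 1 of 32 neighbouring steps in this order where mean ± SD did not overlap, as in BMDC-fer was Scap above Ggps1.

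How alike the members were was described by the Pearson correlation of each gene's log2 CPM with the mean z score of the 19 cholesterol synthesis enzymes over the 8 libraries, which share group and replicate pair, so no p is given. Within the 19 enzymes, each of which is itself part of the mean, r was between 0.41 for Tm7sf2 and 0.99 for Lss. Outside the 19 it was 0.98 for Fads1, 0.86 for Stard4 and 0.83 for Acaca, and it was 0.43 for Acly, 0.31 for Scd2, 0.11 for Scd1 and -0.08 for Srebf1. Of all tested genes outside the set, Mmab had the highest value, 0.987, and it was followed by Gm5873, Strn, Cyp1b1, Mgat1, Clcn3, Zbtb7b, Tbc1d8b, Smarcc2 and Trappc11, the last at 0.965. Mmab, a cobalamin adenosyltransferase, and Mvk start 242 bases apart on opposite strands of chromosome 5, so the Mvk window printed above also holds the start of Mmab. The log2 fold changes of Mmab were -0.53 in the first pair and 0.94 in the second.

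Genes of the pathway outside the set were tested, from a list of 68 written with the earlier results known. The count table held 67 of them and 66 passed the filter, Thrsp being the exception. Of the 66, 8 rose and 1 fell over all 8 libraries (n = 4 per group, edgeR with Benjamini-Hochberg over all tested genes), beside 3.47% and 5.91% of tested genes, and their median log2 fold change was 0.18. Genes that store or release cholesterol were among those that rose. Soat1, which esterifies cholesterol for storage, was at 302, 303, 295 and 290.0 CPM in BMDC 1 to 4 and at 451, 444, 535 and 567 CPM in BMDC-fer 1 to 4. All BMDC-fer libraries lay above all BMDC libraries, an order that 11.3% of all tested genes and 15 of the 66 had. Soat1 rose by 0.75 ± 0.11 on the log2 scale (adjusted p = 0.00727, edgeR). Nceh1 and Lipa, hydrolases that free cholesterol from its esters, rose by 0.73 ± 0.10 (adjusted p = 0.00564) and 0.64 ± 0.14 (adjusted p = 0.0215) by edgeR. Stard5, a sterol carrier, rose by 1.03 ± 0.15 (adjusted p = 0.00616, edgeR), and the other 7 genes of the 11 for cholesterol trafficking and esters were not called.

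**Figure D5:**
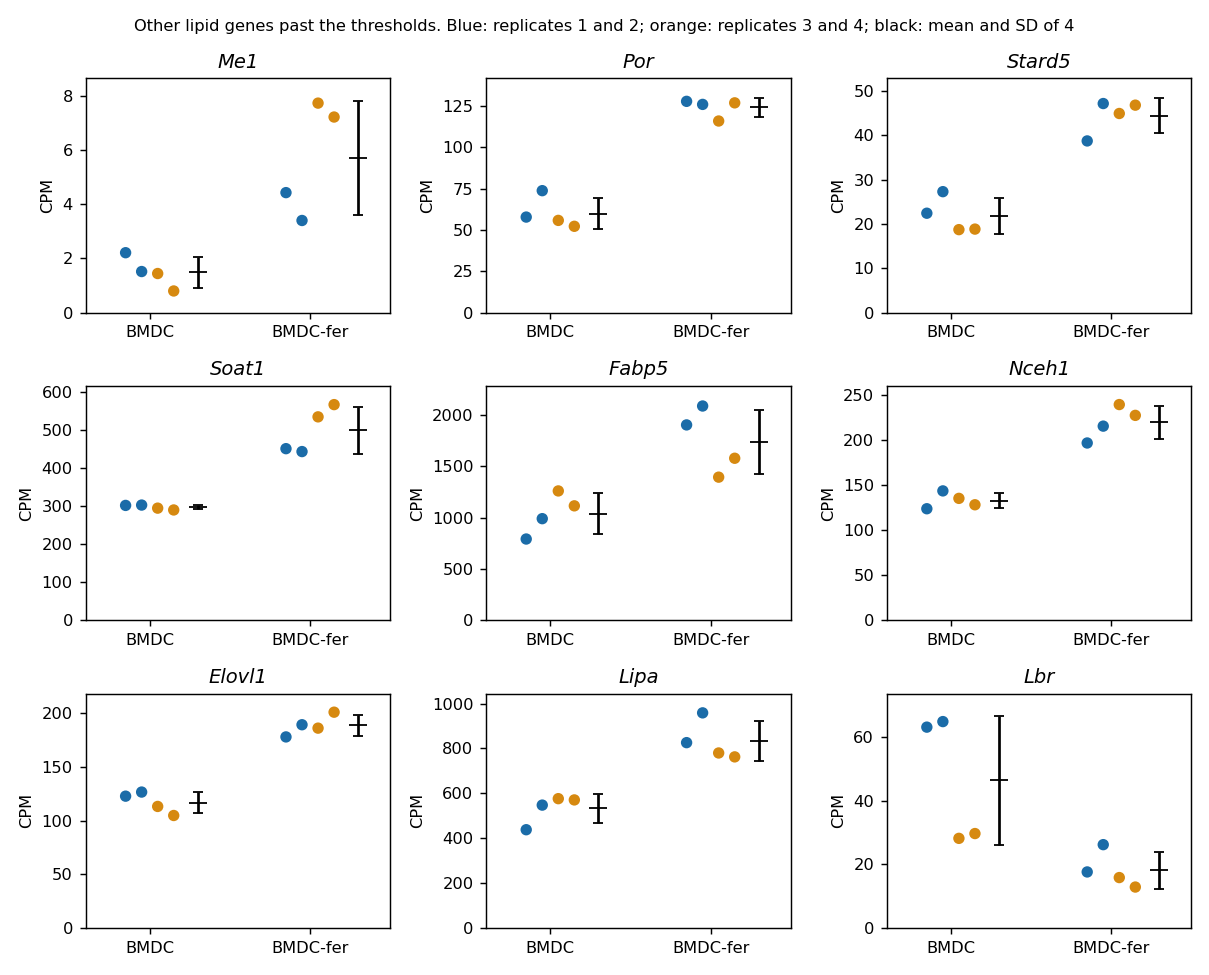
CPM of the 9 tested pathway genes outside the set that passed the thresholds, in the 8 libraries; each point is a library, blue for replicates 1 and 2 and orange for replicates 3 and 4, and the black mark is the mean ± SD of 4. In the 8 genes that rose all BMDC-fer points lie above all BMDC points, and in Lbr all lie below. Of all tested genes 11.3% had the first order and 11.6% the second.

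Por and Me1 supply electrons and NADPH to lipid synthesis. Por, the reductase that serves Cyp51 and Sqle, was at 57.8, 73.8, 55.8 and 52.2 CPM in BMDC 1 to 4 and at 128, 126, 116 and 127 CPM in BMDC-fer 1 to 4. It rose by 1.05 ± 0.12 (adjusted p = 0.0033, edgeR), with the smallest BMDC-fer value above the largest BMDC value and with like changes in both pairs, 0.95 and 1.17. Me1, the cytosolic malic enzyme, was at 2.21, 1.52, 1.44 and 0.80 CPM in BMDC 1 to 4 and at 4.43, 3.40, 7.74 and 7.22 CPM in BMDC-fer 1 to 4, low but apart in every library, and rose by 1.93 ± 0.38 (adjusted p = 0.0161, edgeR). Elovl1, which lengthens very long saturated fatty acids, rose by 0.69 ± 0.10 (adjusted p = 0.00577, edgeR). Fabp5, a fatty acid carrier, rose by 0.74 ± 0.19 (adjusted p = 0.039, edgeR), but with the replicate number as a block its adjusted p was 0.0629 (range over all alternatives 0.0032 to 0.0910), and the call was lost in 7 of the 8 fits that left out a library, all but that without BMDC-fer 3, with log2 fold changes from 0.64 to 0.85 over the 8.

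Lbr, an inner nuclear membrane protein with sterol C14 reductase activity, was at 63.2, 64.9, 28.2 and 29.7 CPM in BMDC 1 to 4 and at 17.6, 26.2, 15.8 and 12.9 CPM in BMDC-fer 1 to 4. All BMDC-fer libraries lay below all BMDC libraries, an order that 11.6% of all tested genes and 4 of the 66 had. Lbr fell by 1.36 ± 0.34 on the log2 scale (adjusted p = 0.0366, edgeR). Its call was lost in 5 of the 8 fits that left out a library (BMDC 1, BMDC 2, BMDC-fer 1, BMDC-fer 3 or BMDC-fer 4). Its log2 fold changes ran from -1.59 to -1.15 over the 8. The call of Lipa was lost without BMDC 1 at 0.57, BMDC-fer 2 at 0.57 or BMDC-fer 4 at 0.69, and that of Me1 without BMDC-fer 4 at 1.80. The next lower genes did not pass the test: Dgat2 had -0.89 ± 0.49 (adjusted p = 0.255), Acsl3 -0.83 ± 0.34 (0.143) and Rnf145 -0.57 ± 0.23 (0.137) by edgeR. None of the 11 genes of SREBP processing and sterol-regulated degradation was called, and none of the 10 genes of isoprenoid use, of which 1, Fnta, had an adjusted p under 0.05.

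The difference between the replicate pairs was itself tested in these 66 genes, in a fit with a mean for each group and pair. The pairs were drawn with their separation known and hold 2 libraries per group. The adjusted p values below therefore describe this split of these libraries only. The difference passed an adjusted p of 0.05 in 25 of the 66 genes. In 19 of these the log2 fold change, taken with its sign, was higher in replicates 3 and 4, beside 19.5% of tested genes. In the other 6 it was higher in replicates 1 and 2, beside 18.3%. A higher value can also come from a fall in the other pair. Aacs, which activates acetoacetate for sterol and fatty acid synthesis, was at 73.2, 80.3, 25.4 and 24.3 CPM in BMDC 1 to 4 and at 41.4, 46.9, 73.99 and 57.3 CPM in BMDC-fer 1 to 4. Aacs was the only 1 of the 66 called lower in the first pair and higher in the second, at -0.80 ± 0.12 and 1.40 ± 0.13, a difference of 2.20 ± 0.18 (adjusted p = 9.1e-05, edgeR). Of the others that passed with a higher value in replicates 3 and 4, Acsl3, a fatty acid activating enzyme, differed by 1.83 ± 0.19 (adjusted p = 0.000262, edgeR). Its pairs gave -1.66 ± 0.14 and 0.16 ± 0.14, so its larger change was the fall in replicates 1 and 2. Me1 differed by 1.66 ± 0.42 (adjusted p = 0.0131) and Oxsm, of mitochondrial fatty acid synthesis, by 1.42 ± 0.16 (adjusted p = 0.000408) by edgeR. In the other direction, among the 6 that passed, the largest were -0.84 ± 0.18 for Fabp5 (adjusted p = 0.00649) and -0.66 ± 0.14 for Npc2 (adjusted p = 0.00517) by edgeR. Next were -0.57 ± 0.11 for Gramd1b (adjusted p = 0.00459) and -0.57 ± 0.10 for Nus1 (adjusted p = 0.00295) by edgeR. The pairs of Gramd1b gave 0.17 ± 0.08 and -0.40 ± 0.08, so its larger change was the fall in replicates 3 and 4. The median difference over all 66 genes was 0.19. The 33 members were proposed for their opposite changes in the pairs, so their median difference is not compared with it.

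Markers of cell types were read beside these values. The summed CPM of 10 dendritic cell markers was 18048.8, 12159, 8188 and 7760.5 in BMDC 1 to 4 and 8701, 5648, 3451 and 3473 in BMDC-fer 1 to 4, with 3 of 10 called lower. This sum was thus higher in replicates 1 and 2 than in replicates 3 and 4 in both groups. The members, in contrast, were higher in BMDC-fer 3 and 4 than in BMDC-fer 1 and 2. A sum follows its most abundant genes, so it need not hold for each of the 10 markers. The summed CPM of 10 macrophage markers was 2885.5 to 3647 in BMDC and 3435 to 4878 in BMDC-fer, with 1 called lower. Neutrophil markers summed to 46.2 to 265 CPM in BMDC and 14.1 to 44.6 in BMDC-fer, with 5 of 10 called lower. Beside these counts, 5.91% of all tested genes were called lower over all 8 libraries. Mast cell and basophil markers summed to at most 41.6 CPM, T cell markers to at most 5.46, with Trac, Trbc1 and Bcl11b at 3 counts or fewer in every library, and B cell markers to at most 1.44. Of the T cell markers 2 passed the filter, and 1 of them was called lower. The 9 genes of dividing cells summed to 1331, 1426, 683 and 672 CPM in BMDC 1 to 4 and to 842, 1264, 687 and 638 CPM in BMDC-fer 1 to 4. Their sum was high in BMDC 1 and 2 as the members were, but not in BMDC-fer 3 and 4. The part of cell mixture and of cell division in the members' values was not tested, and what the replicate pairs share besides their number is not in the labels.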

How the data were processed

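The members and the gene lists were chosen with earlier results of these data known. The authors mapped the reads with HISAT2 (the submitters' processing notes name mm10, CASAVA, featureCounts and DESeq2), counted them on the genes of both species with featureCounts, and deposited the mouse counts with no normalization. The sources used here do not give the annotation, strand setting or treatment of multi-mapping reads. The human counts were not used here.

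Identifiers were named with GENCODE M21 (GRCm38), which matched 55141 of 55487 rows. The fits used edgeR 4.0.16 in R 4.3.3, with TMM scaling, and filterByExpr at a count minimum of 10 kept 15411 genes. The quasi-likelihood test was adjusted by Benjamini-Hochberg over these genes, and calls required 0.58 or more on the log2 fold change scale, in either direction, with an adjusted p up to 0.05. Errors of fold changes are standard errors of the fit. Fits within replicate pairs and of the difference between them used a mean for each group and pair (1 and 2, 3 and 4). The study describes the libraries as independently collected samples. Depth was 39326672 to 50532209 counts per library, at which 3 counts are 0.0594 to 0.0763 CPM, a floor that covers counting error only.

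The same-numbered libraries deviated together from their group means (r across genes 0.313 to 0.445, all above 0.1). Within 1 and 2, and within 3 and 4, libraries with unlike numbers also deviated together (0.186 to 0.379), and BMDC 3 and 4 correlated best with BMDC-fer 4 and 3, so the values show the split of 1 and 2 from 3 and 4 more than a pairing by number. The main fit over all 8 libraries held no term for the replicate number, and a fit with that number as a block was an alternative. Further alternatives were RLE and total-count scaling, no filter, DESeq2 1.42.0, no minimum fold change and each library left out. The scripts were tested on simulated counts. Every member is named, as are the other pathway genes that were called, the 4 with the largest change in each direction, the 4 with the largest difference between pairs in each direction among those past the threshold, and the 10 tested genes most like the cholesterol synthesis enzymes.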

Additional observations from a re-analysis of the deposited data

Results flagged for a closer look

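In 3 cases a single library stood apart from the other 3 of their group by Dixon's gap test, among 84 groups of values tested. Chance would give about 4.2 if the libraries of each group varied alike. Many groups were split by replicate pair, so that number is only a rough guide. Mvd was at 78.1 CPM in BMDC 2 and at most 58.9 CPM in the other BMDC libraries, a gap of 0.94 of the range. Scd1 was at 31.6 CPM in BMDC 1 and at least 83.3 CPM in the others, a gap of 0.83 of the range. Por was at 115.9 CPM in BMDC-fer 3 and at least 126 CPM in the others, a gap of 0.84 of the range. Of the 66 tested pathway genes outside the set, 25 had a change between BMDC-fer and BMDC that differed between replicates 1 and 2 and replicates 3 and 4 (edgeR, adjusted p of 0.05 or less), beside 37.8% of all tested genes, so the count is near the background.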

How the results depend on the processing

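Over all 8 libraries the members called higher numbered 0 in every alternative run. The members called lower numbered 1, Srebf1, and 2 under the replicate block (the replicate number as a term), which added Scd1, and 0 to 1 when a library was left out (0 without BMDC 3, BMDC 4, BMDC-fer 1, BMDC-fer 2 or BMDC-fer 4). The median log2 fold change of the members ranged from -0.09 to 0.28 over the fits that left out a library for all 8 libraries, from -1.16 to -0.71 in replicates 1 and 2, and from 0.93 to 1.16 in replicates 3 and 4. The sign of a member's fold change held in all alternatives for 20 of 33 members over all libraries, for 29 in replicates 1 and 2 and for 31 in replicates 3 and 4. Scaling by total counts alone moved the median of all tested genes by -0.09 over all libraries and to -0.19 in replicates 1 and 2, and under it Idi1, Ggps1 and Scap were below 0 over all libraries, at -0.16, -0.06 and -0.04, as Ebp was in replicates 1 and 2. The other pathway genes called lower numbered 1, 2 with total counts only, which added Acsl4, and 0 to 1 when a library was left out. Those called higher numbered 8, and 5 to 8 when a library was left out. The other pathway genes whose difference changed between the pairs numbered 25, 37 with total counts only, 24 to 30 with RLE, DESeq2 or no filter, and 17 to 30 when a library was left out. With the block Fabp5 lost its call and no other of the 9 called pathway genes did, and with total counts only Lipa did, at 0.56. The leave-out fits within a pair rest on a lone library in a group, which is assumed to vary like the others. With 2 libraries per group and pair, and no label for what the pairs share, a pair's difference describes those libraries.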
